A study of Mus musculus with 8 samples.

Results

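The ATP-binding cassette (ABC) genes of mouse were examined in primary cultures of kidney proximal tubule cells given GW4064, a synthetic agonist of the bile acid receptor FXR. A gene was counted as a member if the transcript that a probe was designed to maps to a symbol of the form Abca to Abcg followed by a number. The array held probes for 49 such genes of 20659 named genes, with 67 probes between them. Of the 49, 34 were measured above background and were tested, and 15 were not. The cells came from the kidney cortex of mice (C57/BJ, male, 6 weeks old), were grown to confluence and were then kept in serum-free medium for 24 h with either DMSO, the vehicle (4 samples), or 1 uM GW4064 in place of it (4 samples). The labels name no transgene or deletion in either group. RNA was read on 8 one-colour Agilent arrays on 2 slides of 4, each slide with 2 DMSO and 2 GW4064 arrays.

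ABC proteins bind and hydrolyse ATP to move lipids, bile salts, drugs, peptides, metal complexes or conjugated anions across membranes. The A subfamily carries mostly lipids, the B and C subfamilies hold drug, bile and conjugate pumps beside transporters of mitochondria and lysosomes, the D subfamily serves peroxisomes and lysosomes, and the G subfamily exports sterols and drugs. The E and F proteins have the ATPase domains without a membrane part and work on ribosomes. In the proximal tubule, pumps of the apical membrane such as Abcc2, Abcc4, Abcb1a and Abcg2 finish the secretion of organic anions and drugs that carriers of the basolateral membrane take up. In liver, Abcb11, Abcb4 and Abcc2 are known targets of FXR.

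Promoters of 4 of the genes that rose with GW4064, taken from RefSeq, are shown because nuclear receptors such as FXR bind the half-site AGGTCA. The printed stretch is the 250 bases before the annotated start in build GRCm38.p6, read 5′ to 3′ on the strand of the gene, with the half-site (AGGTCA, or TGACCT on the other strand) in capitals. The Abcc2 stretch is chr19:43782058-43782307 on the plus strand, Abcb6 is chr1:75180393-75180642 on the minus strand, Abcc10 is chr17:46328024-46328273 on the minus strand, for 1 of its 2 listed starts, and Abcb4 is chr5:8893471-8893720 on the plus strand.
Abcc2: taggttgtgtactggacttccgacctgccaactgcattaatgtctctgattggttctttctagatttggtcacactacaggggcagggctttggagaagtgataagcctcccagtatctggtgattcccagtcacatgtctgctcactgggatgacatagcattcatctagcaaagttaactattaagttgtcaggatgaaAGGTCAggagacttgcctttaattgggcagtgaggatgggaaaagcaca
Abcb6: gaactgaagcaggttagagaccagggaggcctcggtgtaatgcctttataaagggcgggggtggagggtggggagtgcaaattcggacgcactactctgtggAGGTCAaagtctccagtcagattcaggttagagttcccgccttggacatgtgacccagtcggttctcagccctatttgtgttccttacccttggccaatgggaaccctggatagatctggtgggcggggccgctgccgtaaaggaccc
Abcc10: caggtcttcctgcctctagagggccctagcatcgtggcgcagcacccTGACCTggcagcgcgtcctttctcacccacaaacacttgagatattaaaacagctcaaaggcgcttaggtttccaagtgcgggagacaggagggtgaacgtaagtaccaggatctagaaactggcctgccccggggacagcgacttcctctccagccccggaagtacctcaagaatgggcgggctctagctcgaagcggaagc
Abcb4: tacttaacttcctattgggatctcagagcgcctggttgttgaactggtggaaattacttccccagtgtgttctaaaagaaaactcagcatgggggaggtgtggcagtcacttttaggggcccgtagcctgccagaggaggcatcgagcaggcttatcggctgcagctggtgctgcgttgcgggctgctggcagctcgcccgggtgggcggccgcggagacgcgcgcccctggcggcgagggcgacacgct
The half-site began 49 bases before the start in Abcc2, 148 in Abcb6 and 203 in Abcc10, and these letters are not in the printed Abcb4 stretch. Of the genes that rose, 7 had a promoter in the table and 3 of them, those 3, held the half-site within the 300-base window that runs from 250 bases before to 50 after the start. It was in 16.3% of all 32851 promoters of that length, and among the 44 promoters of the members 15.9%. The inverted repeat that FXR is known to prefer, searched as GGTCA and TGACC with any 1 base between them, was in 0 of the 44 and in 0.0396% of all promoters. The antioxidant response core TGACNNNGC, which may share its TGAC with a half-site, was in 15.9% of the members' promoters and 12.4% of all, and Abcc2 and Abcc10 were the 2 risen genes with it. A match is a description of the letters only.

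With GW4064, 10 of the 34 tested ABC genes rose and 0 fell at an adjusted p of 0.05 in limma, and 24 did not pass. Among all 14476 genes tested 20.8% were called, 11.8% higher and 8.95% lower, so the members' 29.4% higher stood beside 11.8%. The rises were small. Abcc6 (1.76-fold) and Abcc2 (1.52-fold) were the 2 at 1.5-fold or more, followed by Abca7, Abca1, Abcd4, Abcb4, Abcb6, Abcb8, Abcc10 and Abcb9 between 1.37-fold and 1.13-fold. The median log2 fold change was 0.14 over the 34 genes and 0.01 over all genes tested. On that scale 28 of the 34 lay above 0 and 6 below, against 54.2% above 0 among all genes. The count above 0 was 26 after quantile normalization and in the authors' deposited log2 values, 27 after median centring and 22 after background correction with normexp. After normexp the median of all genes was -0.06. The share of all genes above 0 is not given for these settings. In 14 of the 34 members, the 10 called genes among them, every GW4064 array lay above every DMSO array, as in 15.0% of all genes. At an unadjusted p of 0.05 in limma 7 more members passed, 6 higher and Abca17 lower, which makes 17 of 34 beside 34.4% of all genes. After normexp 0 members were called, and 9 after the outlying local backgrounds of that correction were replaced. Of the 10 called genes 9 still lay above 0 after normexp, with wider errors, among them Abcc2 at 0.61 ± 0.14 (SE), Abca7 at 0.52 ± 0.16 and Abca1 at 0.40 ± 0.13 on the log2 scale, while Abcb4 lay at 0.07 ± 0.18. Every one of the 34 was well above background on all 4 arrays of both groups, so none entered the test through 1 group alone.

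**Figure D1:**
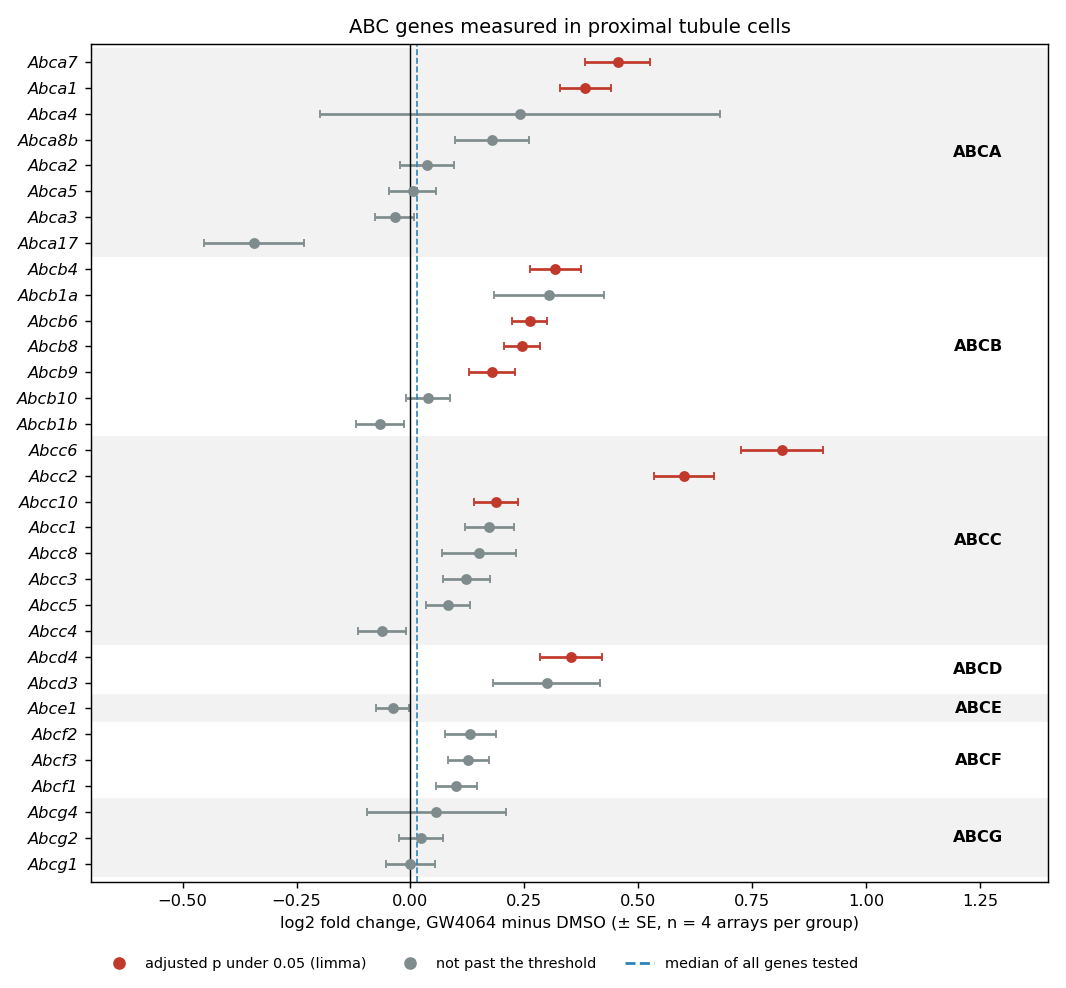
Each point is the log2 fold change (x axis, GW4064 minus DMSO) of 1 of 32 of the 34 tested ABC genes, grouped by subfamily, with its standard error from 4 arrays per group; red points passed an adjusted p of 0.05 in limma, grey points did not, and the dashed line is the median of all genes at 0.01. The red points lie between 0.18 and 0.81, in the A to D subfamilies, and Abca17, at -0.34, is the lowest point.

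By subfamily, 2 of 8 ABCA genes rose (median log2 fold change 0.11), 4 of 8 ABCB genes (0.21), 3 of 8 ABCC genes (0.16) and 1 of 3 ABCD genes (0.30). In the ABCE, ABCF and ABCG subfamilies 0 of 1, 0 of 3 and 0 of 3 genes passed, with medians of -0.04, 0.13 and 0.02. The differences between subfamilies were not tested. Members of 1 subfamily are different genes of the same 8 arrays and are not replicates. Within a group of arrays the spread differed among members. The lowest standard error of a log2 fold change was 0.04 and the highest 0.44, the latter in Abca4.

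The ABCC subfamily held the largest rises. Values below are the signal of a probe as a percentage of the 75th percentile of its array, so that 100 is that percentile; they compare arrays for 1 probe and do not rank genes. Abcc2 encodes the apical pump MRP2, which exports glucuronide and glutathione conjugates. Its relative signal was 157, 166, 153 and 163 on the 4 DMSO arrays and 259, 253, 246 and 213 on the 4 GW4064 arrays. The lowest GW4064 array stood well above the highest DMSO array, and the log2 fold change was 0.60 ± 0.07 (SE, n = 4 per group; adjusted p = 0.000487). It was 0.66 on slide 1 and 0.54 on slide 2.

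Abcc6, whose loss in humans causes calcification of elastic tissue, was dim. Its relative signal was 3.93, 3.28, 3.59 and 4.32 with DMSO and 7.03, 6.43, 6.99 and 6.07 with GW4064. The groups did not overlap, and the log2 fold change was 0.81 ± 0.09 (SE, n = 4 per group; adjusted p = 0.000490). A second Abcc6 probe stayed at background throughout. Under normexp the log2 fold change of Abcc6 was -0.22, and it was 0.53 once outlying local backgrounds were replaced. Abcc10, a pump of lipophilic anions and drugs, read 141, 132, 129 and 129 with DMSO and 153, 159, 142 and 151 with GW4064. The gap between its groups was narrow (log2 fold change 0.19 ± 0.05 SE, adjusted p = 0.0269), and its call was lost when any 1 of DMSO replicates 2, 3 and 4 or GW4064 replicates 1 and 2 was left out (adjusted p from 0.0629 to 0.0746).

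The other pumps of this subfamily did not pass. Abcc1, which encodes the glutathione conjugate pump MRP1, read 174 to 203 with DMSO and 204 to 213 with GW4064, without overlap. Its log2 fold change was 0.17 ± 0.05 (SE, adjusted p = 0.0545 in limma). The adjusted p was 0.0152 without DMSO replicate 4 and 0.0855 to 0.135 without any other 1 array. Abcc4, the apical pump MRP4 that also carries cyclic nucleotides and urate, had a log2 fold change of -0.06 ± 0.05 (SE), with a 95% interval from -0.18 to 0.06. Abcc3 lay at 0.12 ± 0.05 and Abcc5, another cyclic nucleotide pump, at 0.08 ± 0.05. For Abcc5 all 4 probes lay above 0, and 1 of them gave 0.23 ± 0.06 with an adjusted p of 0.0339 over all probes. Abcc8, the sulphonylurea receptor that gates potassium channels, had a log2 fold change of 0.15 ± 0.08 with its brighter probe. Its dimmer probe was well above background on 2 DMSO and 4 GW4064 arrays. That probe passed the filter on dim probes through its GW4064 arrays, so that no fold is given for it. The partner channel genes of Abcc8, Kcnj8 and Kcnj11, were not measured above background on 4 arrays.

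**Figure D2:**
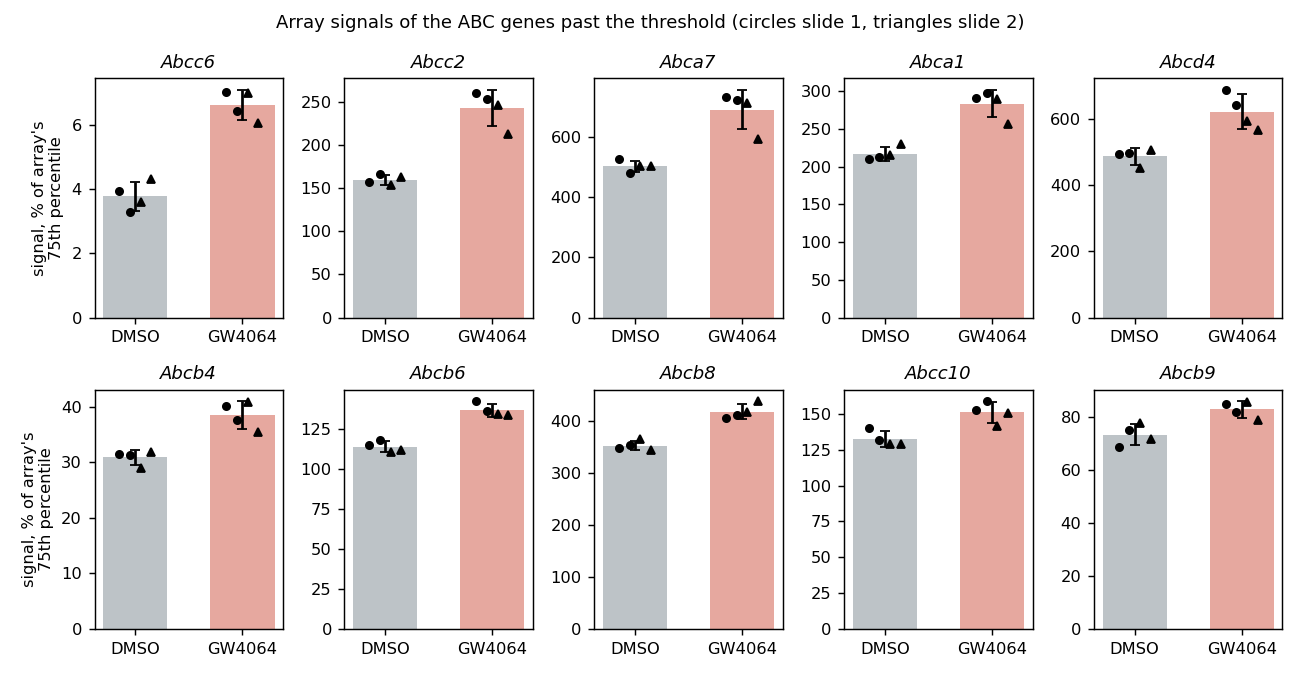
Bars give the mean relative signal (y axis, per cent of the array's 75th percentile, starting at 0) of the 10 ABC genes that passed, with the SD over 4 arrays, and points give the arrays, circles on slide 1 and triangles on slide 2. In each panel all GW4064 points lie above all DMSO points; Abcc6 moves from a mean of 3.78 to 6.63 and Abcb9 from 73.3 to 83.0.

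In the ABCB subfamily the rises were in a bile lipid transporter and in transporters of organelles. Abcb4 encodes the floppase that places phosphatidylcholine in the outer leaflet of the hepatocyte's bile canaliculus. Its relative signal was 31.4, 31.4, 28.9 and 31.8 with DMSO and 40.2, 37.7, 40.8 and 35.4 with GW4064. All GW4064 values exceeded all DMSO values, and the log2 fold change was 0.32 ± 0.06 (SE, adjusted p = 0.00567), with 0.31 on slide 1 and 0.33 on slide 2. Abcb11, the bile salt export pump of liver, reached 0 arrays above background and was not tested.

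Abcb6 and Abcb8 encode transporters linked to porphyrin and iron handling, Abcb8 in the inner mitochondrial membrane. Abcb6 read 115, 118, 111 and 112 with DMSO and 142, 136, 134 and 133 with GW4064 (log2 fold change 0.26 ± 0.04 SE, adjusted p = 0.00243). Abcb8 read 348, 354, 366 and 346 with DMSO and 406, 413, 418 and 439 with GW4064 (0.25 ± 0.04 SE, adjusted p = 0.00340). In both genes the arrays of each group lay close together and the groups did not overlap. The second Abcb8 probe gave 0.17 ± 0.05 (adjusted p = 0.0459 over all probes). Of the other mitochondrial members, Abcb10, linked to heme synthesis, had a log2 fold change of 0.04 ± 0.05 (SE) and did not pass.

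Abcb9, a lysosomal peptide transporter, read 68.7, 75.1, 77.8 and 71.7 with DMSO and 85.1, 82.2, 85.7 and 79.0 with GW4064. The highest DMSO and lowest GW4064 arrays nearly met, and the log2 fold change of 0.18 ± 0.05 (SE) had an adjusted p of 0.0373. Its adjusted p was the highest of the 10, and 6 of the 8 fits that left out 1 array lost the call, all but those without DMSO replicate 3 or GW4064 replicate 4, as did slide as a block (adjusted p = 0.0528) and median centring (0.100).

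Abcb1a and Abcb1b encode the 2 mouse forms of the drug pump P-glycoprotein. Abcb1a was dim, at 4.64, 4.53, 5.83 and 4.60 with DMSO and 6.51, 6.83, 6.01 and 4.90 with GW4064, with overlap between the groups and a log2 fold change of 0.30 ± 0.12 (SE, adjusted p = 0.113). Without DMSO replicate 3 its adjusted p was 0.0455 and without GW4064 replicate 4 it was 0.0306. Without any other 1 array it was 0.1798 to 0.2415. Abcb1b had a log2 fold change of -0.07 ± 0.05, with a 95% interval from -0.19 to 0.05. The 2 genes are close paralogs, and how far either probe reads the other's transcript is not known from the files.

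Among the lipid transporters of the ABCA subfamily, Abca1 and Abca7 rose. Abca1, the sterol-responsive exporter of cholesterol and phospholipid to apolipoprotein A-I, had relative signals of 209.7, 213, 215 and 230.4 with DMSO and of 290.4, 297, 289.8 and 257 with GW4064. Its log2 fold change was 0.38 ± 0.06 (SE, adjusted p = 0.00231). Abca7, a close relative that exports phospholipid, read 526, 480.0, 503 and 503 with DMSO and 734, 724, 714 and 594 with GW4064 (0.45 ± 0.07 SE, adjusted p = 0.00329). In both genes GW4064 replicate 4 was the lowest of its group and still above every DMSO array. The slides gave 0.48 and 0.29 for Abca1, and 0.54 and 0.37 for Abca7.

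Abca17 was the member with the largest difference in the other direction. Its dim probe read 4.04, 4.00, 3.86 and 3.67 with DMSO and 2.50, 3.27, 3.69 and 2.93 with GW4064, with GW4064 replicate 3 inside the DMSO range. The log2 fold change of -0.34 ± 0.11 (SE) did not pass (adjusted p = 0.0581) but did after quantile normalization (0.0363), in the authors' deposited log2 values (0.0371) with the filter on all 8 arrays (0.0499), with array weights (0.0406) and without GW4064 replicate 3 (0.0184). Without any other 1 array its adjusted p in limma was 0.0856 to 0.126. The log2 fold change was -0.05 after normexp with outlying local backgrounds replaced. Abca3, which fills lamellar bodies with lipid in lung, lay at -0.03 ± 0.04, Abca2 at 0.04 ± 0.06 and Abca5 at 0.01 ± 0.05, and Abca8b at 0.18 ± 0.08. Abca4, the retinoid flippase of photoreceptors, had 1 high array in each group, 10.68 in DMSO replicate 4, where the remaining DMSO arrays read 2.94 to 3.13, and 8.04 in GW4064 replicate 1 against 3.89 to 4.47. Its log2 fold change was 0.24 ± 0.44 with all arrays, 0.69 without DMSO replicate 4 and 0.0046 without GW4064 replicate 1, and none of these passed. A second Abca4 probe, above background on 3 DMSO and 4 GW4064 arrays, also lay above 0 and did not pass (adjusted p = 0.141 over all probes in limma).

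None of the 3 tested sterol and drug exporters of the ABCG subfamily passed. Abcg2, the apical drug and urate pump BCRP, read 2679, 2692, 2461 and 2687 with DMSO and 2709.8, 2540.3, 2633 and 2805 with GW4064, with interleaved values and a log2 fold change of 0.02 ± 0.05 (SE, 95% interval from -0.09 to 0.13). Abcg1, which exports sterols to lipoprotein particles and, like Abca1, answers to the oxysterol receptors LXR, had a log2 fold change of -0.00071 ± 0.05 with a 95% interval from -0.12 to 0.12. Abcg4 was dim and lay at 0.06 ± 0.15. Whether Abca1 and Abcg1 differed in their response was not tested.

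Abcd4, which works with lysosomal cobalamin export, was the ABCD gene that rose. It read 493, 497, 452 and 508 with DMSO and 689, 642, 595 and 566 with GW4064, without overlap (log2 fold change 0.35 ± 0.07 SE, adjusted p = 0.00869). Its call was lost after normexp (adjusted p = 0.593 in limma), also with outlying local backgrounds replaced (0.28, adjusted p = 0.0626), and on slide 2 alone (0.237). Abcd3, the abundant peroxisomal membrane protein PMP70, read 943, 1013, 888 and 995 with DMSO and 1077, 1079.5, 1084 and 1535 with GW4064. The groups did not overlap, but GW4064 replicate 4 stood far above the others and the log2 fold change of 0.30 ± 0.12 (SE) did not pass (adjusted p = 0.113); without that array it was 0.17 (adjusted p = 0.0600).

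None of the 4 ABC proteins of translation passed. Abce1, the ribosome recycling factor, had a log2 fold change of -0.04 ± 0.04 (SE, 95% interval from -0.12 to 0.04). Abcf1, Abcf2 and Abcf3 lay at 0.10 ± 0.05, 0.13 ± 0.06 and 0.13 ± 0.04, and none passed (adjusted p = 0.160, 0.134 and 0.0850). Among 9 translation partners of these proteins 0 rose and 0 fell in limma, and 0 at an unadjusted p of 0.05, with a median log2 fold change of -0.02. Over all genes tested 20.8% were called.

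Within each slide the direction could be compared across 2 DMSO and 2 GW4064 arrays. Of the 34 members 25 (73.5%) had the same sign on both slides, as did 72.9% of all genes tested. The 10 risen genes lay above 0 on both, and each of the 3006 called genes had 1 sign on both; the calls were made from both slides together. Slide 1 alone called 6 members and slide 2 alone 0, where the whole table gave 966 and 220 calls. Abcd3 differed more on slide 2 (0.46) than on slide 1 (0.14), and Abcb1a more on slide 1 (0.54 against 0.07). DMSO arrays held the first places of each slide and GW4064 arrays the last, so place and treatment cannot be told apart.

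**Figure D3:**
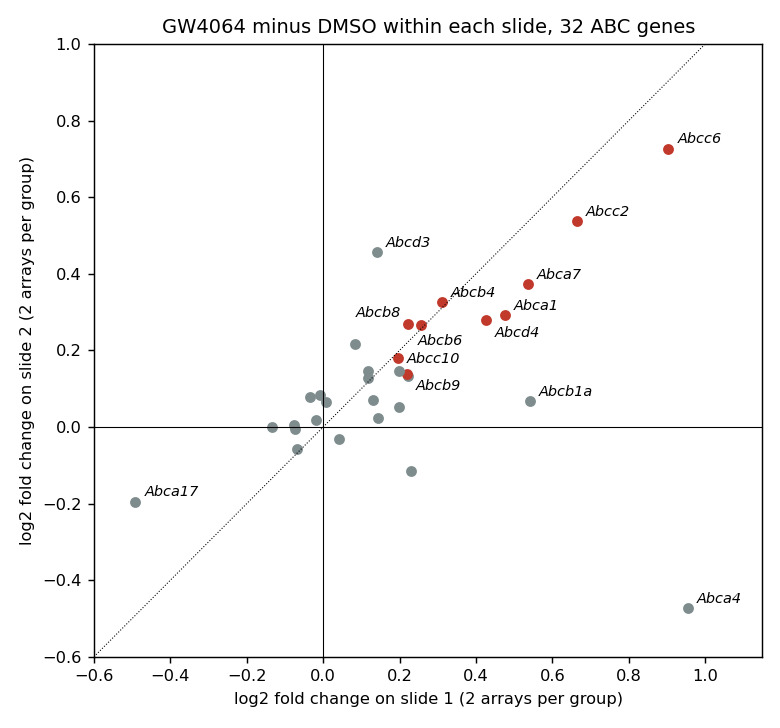
Each point is 1 of 32 of the 34 ABC genes, with its log2 fold change (GW4064 minus DMSO, 2 arrays per group) on slide 1 on the x axis and on slide 2 on the y axis; red points passed in all 8 arrays, and the dotted line marks equal values. The red points lie above 0 on both axes, and Abca4 lies at 0.96 on slide 1 and -0.47 on slide 2.

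The 15 members not tested were Abca6, Abca8a, Abca9, Abca12, Abca13, Abca14 and Abca15, the drug pump Abcb5 and the bile salt pump Abcb11, Abcc9 and Abcc12, the peroxisomal Abcd2, and Abcg3, Abcg5 and Abcg8. For 13 of them no array showed a probe well above background. Abca9 reached 3 arrays and Abca15 reached 1. Abcg8 is among the 13, and all spots of its probe were marked as outliers on at least 1 array. Abcg5 and Abcg8 together form the sterol pump of liver and gut. These genes have only a bound in both groups, and nothing is said of a change in them.

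Genes that encode ABC proteins under other symbols stood beside the members. Cftr, the chloride channel of the C subfamily, was 1.51-fold lower with GW4064 (log2 fold change -0.59 ± 0.10 SE, adjusted p = 0.00438 in limma). Its probe was dim, at relative signals of 7.63 to 9.68 with DMSO and 5.15 to 6.49 with GW4064. Its value after normexp is not given here. Tap1 and Tap2, the peptide transporter of antigen presentation, had log2 fold changes of -0.08 ± 0.06 and -0.05 ± 0.06 and did not pass. Of 9 peptide loading partners 3 rose and 0 fell, Tapbpl (1.29-fold), Calr (1.18-fold) and Tapbp (1.11-fold), with a median log2 fold change of 0.01 over the list. Over all genes tested 11.8% rose and 8.95% fell. No list here or below was tested as a set. Tapbpl kept its call in all 8 fits without 1 array, while Calr and Tapbp each kept it in 2, and with slide as a block Calr had an adjusted p of 0.0536 in limma.

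Among 14 measured receptors and factors known to act on ABC genes, 4 rose and 2 fell (median log2 fold change 0.08), beside 11.8% higher and 8.95% lower among all genes tested. Nr1i2, the xenobiotic receptor PXR, rose 2.89-fold, Hnf4a 1.80-fold and Nr1h3, which encodes LXR-alpha, 1.31-fold. Nr1h4, which encodes FXR, was 1.37-fold lower (-0.45 ± 0.05 SE). Of 11 genes listed for carriers that load or drain tubule cells alongside the ABC pumps 5 rose and 0 fell, with a median of 0.29. The 11 include Pdzk1, a scaffold protein and not a carrier, which did not pass. The organic anion exchanger Slc22a6 rose 4.05-fold and the organic cation carrier Slc22a2 1.45-fold, while the bile acid carrier subunits Slc51a and Slc51b rose by 6.91 ± 0.16 and 3.40 ± 0.07 on the log2 scale. The largest log2 fold change among the ABC genes was 0.81.

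In the cholesterol efflux and LXR target list 4 of 12 genes rose and 2 fell, with a median log2 fold change of -0.0011. The counts in this paragraph stand beside 11.8% higher and 8.95% lower among all genes tested. Apoe, a sterol acceptor apolipoprotein, rose 1.79-fold, the lipoprotein receptor Scarb1 1.33-fold and the lipid droplet protein Plin2 1.21-fold, and Mylip, an LXR target that degrades the LDL receptor, was 1.35-fold lower. Of 12 peroxisomal partners of the ABCD proteins 6 rose and 0 fell (median 0.16), with Pex19, the chaperone that delivers ABCD proteins to the membrane, up 1.27-fold, Pex16 1.25-fold, Pex11a 1.24-fold and the thiolase Acaa1a 1.11-fold. Of 11 mitochondrial iron-sulphur and heme genes 1 rose, Alas1, the first enzyme of heme synthesis (1.16-fold), and 0 fell. Of 5 genes of cobalamin handling and use listed beside Abcd4, 1 rose, Mmut (1.09-fold), and 0 fell. Mmut encodes an enzyme that uses cobalamin. The Mmut call was kept in 2 of the 8 fits without 1 array and had an adjusted p of 0.0535 in limma with slide as a block. Single calls among 11 and among 5 genes are not read as a result about those lists. Of the calls in the other lists, all 8 such fits kept 5 of 6 for the receptors, 4 of 5 for the carriers, 5 of 6 for cholesterol and 4 of 6 for the peroxisome.

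**Figure D4:**
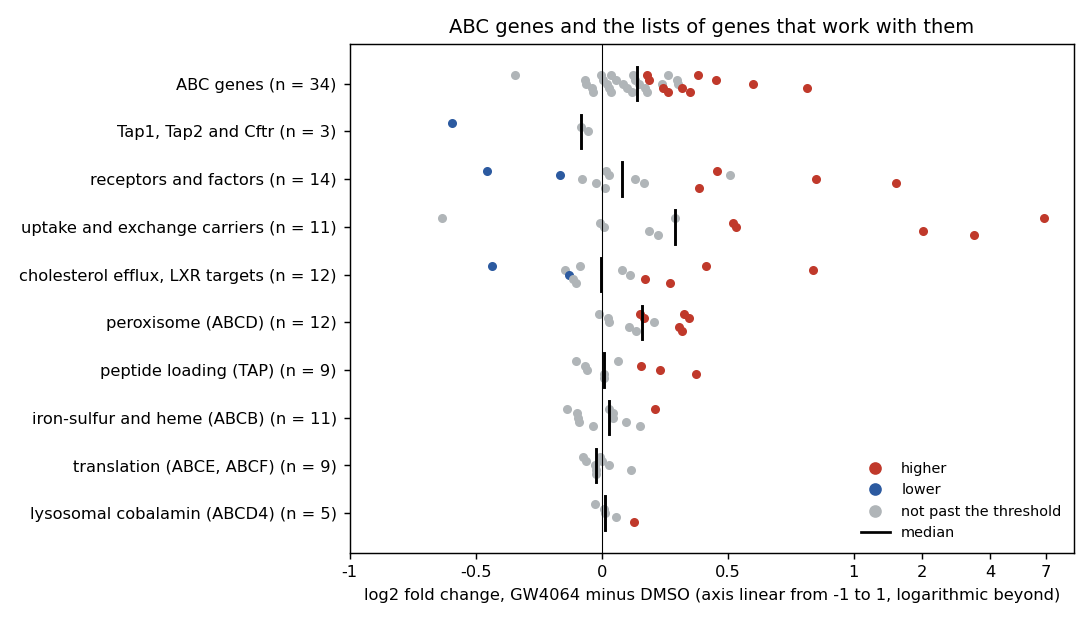
Each point is a gene at its log2 fold change (x axis, GW4064 minus DMSO, linear from -1 to 1 and logarithmic beyond). The 34 ABC genes and 9 lists of genes set beside them are shown. Red passed as higher and blue as lower at an adjusted p of 0.05 in limma, grey did not pass, and the black bar is the list's median. The medians run from -0.08 for Tap1, Tap2 and Cftr to 0.29 for the uptake and exchange carriers.

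Markers of cell types moved with the treatment as well. Their counts stand beside 11.8% higher and 8.95% lower among all genes tested. In bulk RNA fewer cells of a type and less RNA per cell cannot be told apart. Of 14 measured proximal tubule markers 9 rose and 2 fell, and their summed signal, in units of the 75th percentile, was 77.5 to 91.1 on DMSO arrays and 110.5 to 125.5 on GW4064 arrays, with Slc22a8 not above background on 4 arrays. Slc13a1 rose 5.74-fold, Gatm 3.87-fold and Cubn 2.22-fold, and Hnf4a and Slc22a6 are in this list as well. The 2 that fell were Cdh6 (1.52-fold lower) and Pax8 (1.22-fold lower), and both kept the call in all 8 fits without 1 array. Of 12 leukocyte markers 6 rose and 0 fell (summed signal 17.3 to 18.6 and 22.1 to 24.7), Csf1r by 1.68-fold and Cd14 by 1.32-fold, with Msr1 not above background on 4 arrays. Of 9 endothelial markers 4 rose and 0 fell (5.34 to 6.27 and 6.16 to 6.93), Esam by 1.99-fold. Of 9 fibroblast and pericyte markers 3 rose and 0 fell (57.7 to 73.7 and 79.0 to 95.6). Of 7 markers of other nephron segments 0 rose and 2 fell (4.78 to 6.30 and 5.10 to 6.59), Umod 1.63-fold and Slc12a3, which was above background on 4 DMSO but 2 GW4064 arrays and passed the filter on dim probes through its DMSO arrays, so that no fold is given. All 8 fits without 1 array kept 10 of the 11 proximal tubule calls, 3 of 6 leukocyte, 3 of 4 endothelial, 3 of 3 fibroblast and 1 of 2 other nephron calls, the last being Umod. The part of these cell types in the ABC values was not tested.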

How the data were processed

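Spot intensity, as deposited, was scanner output after background subtraction by Feature Extraction, per the file headers. Agilent Feature Extraction 10.7 and limma are listed in the submitters' processing notes. A deposited table of log2 values from the authors, whose scale and centring are not given in the sources used here, correlated with its own arrays at 0.9999 or more; it was an alternative only. Controls and outlier spots were left out, spots of a probe were averaged as log2, and each array's 75th percentile was subtracted (DMSO arrays 1478 to 1900 intensity units, GW4064 arrays 1203 to 1697). A probe was kept if well above background on at least 4 of 8 arrays. Accessions gave 27234 of 39429 probes (69.1%) a symbol in the RefSeq table of GRCm38.p6, used for names and promoters only, since the array headers name another build. The brightest kept probe stood for a gene. The comparison used limma 3.58.1 under R 4.3.3 (lmFit, eBayes, Benjamini-Hochberg over 14476 genes, threshold 0.05). The same fit was also run on simulated data drawn from the means and spreads of these arrays. Intervals are 95% from this fit.

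The members and lists were chosen with earlier results of these data known. Genes of other lists were named by a rule: the 4 smallest p per list, with Nr1h4, Slc51a, Slc51b, Tap1, Tap2 and Cftr always; not all are repeated where they did not pass, and some items are not reported here. Replicate numbers were not taken to pair the samples. Over all genes the deviations of same-numbered samples correlated at -0.131, -0.029, 0.192 and -0.022, and those of other pairs at -0.2 to 0.199. Some listed genes had replicate 3 as the extreme array in both groups. Slc22a6 was lowest there (19.9 with DMSO, 79.8 with GW4064) and Tagln highest (3455 and 4998). Whether samples numbered 3 share a source was not tested. Separate cultures or animals are not named for the samples of a group in the labels; the p-values therefore rest on the spread among these samples alone, and that spread may be technical. The number of arrays limits the precision. Alternatives covered background correction, scaling, filters, probes, blocks, variance models, array weights, the deposited table and each array left out.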

Additional observations from a re-analysis of the deposited data

Results flagged for a closer look

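Among 70 groups of 4 arrays examined (32 ABC genes in 2 treatments, the mean over ABC genes and 2 array measures), 11 (15.7%) had a lone high or low array, and chance alone gives about 5%; the gene groups share the same 8 arrays. Values are relative signals, as a percentage of the array's 75th percentile. In 3 of the 11 the array was GW4064 replicate 4, low for Abca7 (594) and Abcg4 (3.12) and high for Abcd3 (1535). DMSO replicate 3 stood apart in 3, high for Abcb1a (5.83) and low for Abcb4 (28.9) and Abcg2 (2461). DMSO replicate 4 was high for Abca4 (10.68) and Abcc5 (208). GW4064 replicate 1 was high for Abca4 (8.04), GW4064 replicate 3 low for Abca2 (119) and DMSO replicate 2 low for Abcf3 (253). The calls of Abca7 and Abcb4 were kept in each of the 8 fits that left out 1 array.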

How the results depend on the processing

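The count of 10 ABC genes lay between 8 and 14 in all alternatives but 3, those 8 among the same genes without a filter on dim probes. The exceptions were normexp (0 members, 119 genes in all), slide 1 alone (6 members, 966 genes) and slide 2 alone (0 members, 220 genes), each slide with 4 of the 8 arrays. Under normexp the median log2 fold change of the 34 fell to 0.10, and on slide 2 alone to 0.11, from 0.14. The median of all genes tested was -0.06 under normexp and 0.01 in the main fit. Abcc6 had -0.22 under normexp (adjusted p = 0.849 in limma) in place of 0.81. In DMSO replicate 3 spot signal minus local background went down to -53476.5 units, and on the other arrays to -44.5 at the lowest. With the background of spots marked as background outliers set to the array's median, an alternative chosen after seeing the data, normexp called 9 members, 8 of the 10 among them, and 2192 genes. Abcb9 and Abcd4 lost the call there. Leaving out 1 array gave 8 to 11 members, 2076 to 2827 genes and medians of 0.11 to 0.16; 8 of the 10 calls were kept in all 8 such fits, and Abcb9 and Abcc10 were not. With the replicate number as a block 9 members and 2322 genes passed, and with slide as a block 9 and 2856; the block lost Abcb9. Not every sample correlated best with its own number. Normexp used the median signal of a spot in place of the planned mean. Of 230 pairs of a called member and an alternative, 186 kept call and direction, 43 lost the call and 1 reversed. Abca17, Abcb1a, Abcc1, Abcc8 and Abcf3, not called, passed in 16 such pairs. Abcc8 passed only with the mean of its probes, which takes in the dimmer probe that was above background on 2 DMSO and 4 GW4064 arrays. Signal over background limits the dim members Abcc6, Abca17, Abca4, Abcb1a, Abcc8 and Abcg4, and Cftr outside the members.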
